A study of Mus musculus with 31 samples.

Results

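The ubiquitin-specific proteases (USPs), the largest family of deubiquitinating enzymes, were followed in mouse squamous cell carcinoma (SCC) cells with and without a working integrated stress response (ISR). Members were taken by symbol, as every gene named Usp followed by a number and at most 1 further letter. The rule found 50 genes, all of them listed both among the 20704 genes of the ribosome-protected fragment (RPF) counts and among the 24593 genes of the total RNA counts. Genes of the same fold under other names, Cyld, Pan2 and Uspl1, were therefore not members. RPF libraries hold the mRNA pieces covered by ribosomes and total RNA libraries hold fragments of the mRNAs, so that the ratio of RPF to total RNA gives the translational efficiency (TE). Of the 50 members, 36 had enough RPF counts for a test, 41 had enough total RNA counts, and 36 were tested for TE.

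All cells were keratinocytes of a skin SCC line, labelled HRasG12V:TgfbrIIfl/fl, whereas the study's list of materials gives both lines TgfbrII in its deleted form. In both genotypes the endogenous Eif2s1 gene, which encodes eIF2α, had been removed by CRISPR-Cas9 and its product was supplied by a lentiviral, myc-tagged Eif2s1 cDNA under the PGK promoter. S51 cells (ISR-competent) carried the wild-type cDNA, and S51A cells (ISR-null) carried a cDNA in which alanine stands in place of serine 51, the residue that stress kinases phosphorylate. Both were lines grown from single sorted cells, and the sources used here do not tie a library to a clone. Cells received vehicle (DMSO) or 100 nM bortezomib, a proteasome inhibitor, for 4.5 h by the sample labels. The study's text gives a slightly shorter time. RPFs were counted in 3 libraries of S51 vehicle and in 4 libraries of each other group, and total RNA in 4 libraries of each group. Sample titles of S51 bortezomib and S51A vehicle had been exchanged in a later correction of the record, and libraries were assigned by the corrected titles. The labels do not say whether replicates came from separate cultures, and the study's text calls them biological in one place and technical in another, so p-values measure only the spread between these libraries, which may be technical. With bulk libraries, fewer cells and less RNA per cell cannot be told apart.

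Library totals on genes ran from 1038826 to 4902237 reads (median 2433494) for RPFs and from 18758668 to 22994713 (median 20887640) for total RNA. Levels are given as CPM, counts scaled by the library's total and its TMM factor, a correction for library composition. Keratinocyte and SCC markers (Krt5, Krt14, Krt8, Krt18, Itga6, Itgb4, Cdh1 and Trp63) summed to 11140 to 16062 CPM in total RNA, whereas the summed markers of fibroblasts, blood and endothelium stayed at or below 10.2 CPM there. Total RNA of Eif2s1 lay between 279 and 314 CPM in all 16 libraries, a measure to which the transgene contributes and which therefore does not check the labels. RPFs of Atf4, the main ISR target, averaged 189 CPM in S51 vehicle and 520 in S51 bortezomib (SD 20.1 and 16.3) against 126 and 132 in S51A (SD 18.9 and 16.04). The Y-linked genes Ddx3y, Uty, Kdm5d and Eif2s3y summed to 165 to 180 CPM in total RNA of S51A and to at most 0.193 CPM in S51. The lines therefore differed by more than the Eif2s1 cDNA, and in every comparison between S51 and S51A below, the serine and the other differences between the lines cannot be told apart.

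Ubiquitin is attached to proteins as a single unit or as chains, many of which send the protein to the proteasome, and USPs cut it off again. Their catalytic domain holds a cysteine, a histidine and an acidic or amide residue, and substrate choice depends on flanking domains, location and partner proteins. Usp14 sits on the proteasome and trims chains from substrates, while Usp5 (isopeptidase T) takes apart unanchored chains and returns free ubiquitin. Others work at endosomes (Usp8), the endoplasmic reticulum (Usp19), the mitochondrial outer membrane (Usp30), chromatin (Usp22, Usp16, Usp3) or sites of DNA repair (Usp1). When the proteasome is blocked, conjugates accumulate and the pool of free ubiquitin shrinks, which places these enzymes close to the drug's target.

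The family is recognised by the box around the catalytic cysteine, and 12 members whose RPFs or TE differ in the results below are shown by the 30 coding bases of that box. Coding sequences of the annotation GENCODE vM21 were translated and searched for asparagine, any residue, glycine, 2 further residues, cysteine and an aromatic residue, and 44 of the 50 members matched. Capitals mark the codon of the cysteine, and every window is printed 5′ to 3′ on the gene's strand (GRCm38, the build named mm10 in the labels). The first 6 belong to genes whose RPFs were higher after bortezomib in S51.
Usp5: cggaacctgggtaacagcTGCtatctcaac
Usp9x: aaaaatgctggtgctactTGTtacatgaac
Usp7: aagaatcagggagcaacgTGTtacatgaat
Usp33: aaaaacattggaaatactTGTtatatgaac
Usp19: gtcaacttagggaacaccTGCttcatgaat
Usp45: acaaacttagggaatactTGCttttttaat
The next 3 belong to genes whose RPFs were lower, and the last 3 to genes whose TE differed between the genotypes under bortezomib.
Usp10: atcaataaaggaaactggTGCtacattaat
Usp36: cacaacctgggtaacaccTGCttcctcaac
Usp1: aataaccttggcaacactTGTtatctgaat
Usp8: cgtaatttgggaaatactTGTtacatgaac
Usp24: aggaacggtggcgctactTGTtacatgaat
Usp25: aagaatgtcggcaacaccTGCtggtttagt
The windows of Usp5 (chr6:124822570-124822599, exon 8 of 20), Usp7 (chr16:8707680-8707709, exon 7 of 32) and Usp36 (chr11:118284932-118284961, exon 4 of 21) lie on the minus strand. On the plus strand lie those of Usp9x (chrX:13145201-13145230, exon 31 of 45), Usp33 (chr3:152363992-152364021, exon 7 of 24), Usp19 (chr9:108495651-108495680, exon 12 of 27), Usp45 (chr4:21796887-21796916, exon 6 of 18), Usp10 (chr8:119947134-119947163, exon 5 of 14), Usp1 (chr4:98928313-98928342, exon 3 of 9), Usp8 (chr2:126751083-126751112, exon 14 of 19), Usp24 (chr4:106406439-106406468, exon 43 of 68) and Usp25 (chr16:77050519-77050548, exon 5 of 24). All are coding and lie within 1 exon. The 6 members without a match were Usp18, Usp21, Usp39, Usp47, Usp53 and Usp54. The search used a fixed pattern and the longest coding transcript of each gene, so a missing match does not show a missing cysteine. Usp39 is a splicing factor known to lack the catalytic cysteine.

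A single library has to be set apart before the results, the RPF library of S51 vehicle replicate 2. It deviated from replicates 1 and 3 with the GC content of the coding sequence, with a Spearman rho of 0.804 across 9275 genes and of 0.914 across the 36 members tested. These correlations are across genes of the same libraries and are given as a description. Between replicates 1 and 3 the same rho was 0.232 and 0.165, and in the 12 RPF libraries of the other groups it ran from -0.422 to 0.295 across genes. The 6 members lowest in it had log2 RPF differences, replicate 2 minus the mean of the other two, of -1.40 for Usp14, -1.34 for Usp34, -1.33 for Usp1, -1.24 for Usp47, -1.14 for Usp9x and -1.02 for Usp16. All 6 have coding sequences of low GC, from 40.3% for Usp14 to 44.1% for Usp47. Among GC-rich members the log2 differences were 0.33 for Usp19 (57.0% GC), 0.25 for Usp36 (56.8%), 0.21 for Usp10 (54.1%) and 0.11 for Usp5 (55.3%), with Usp21 (57.7%, -0.31) on few reads as an exception. The 36 members' RPF results are therefore given with and without this library.

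**Figure D1:**
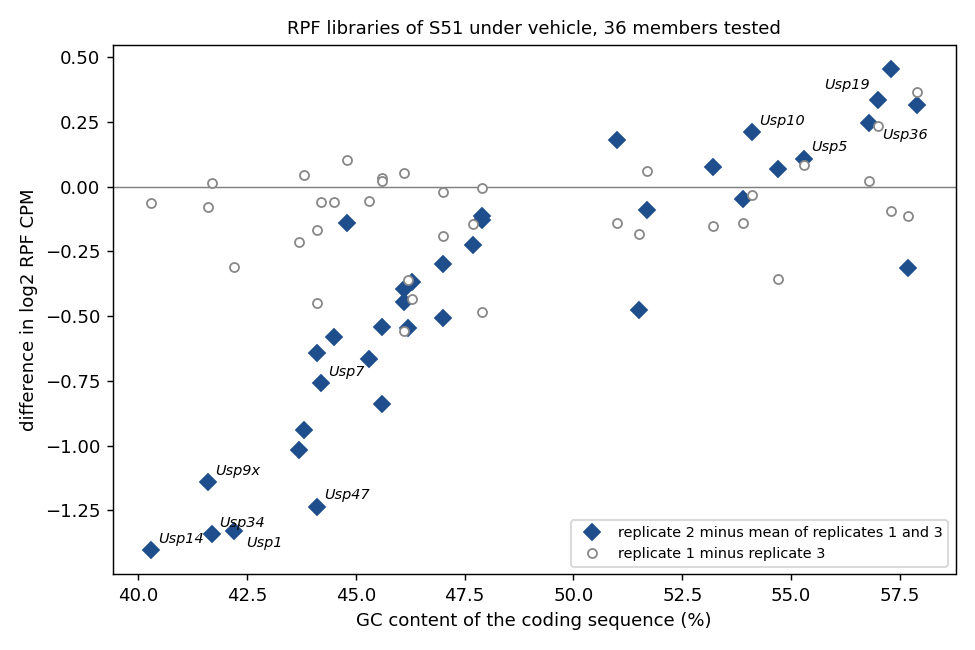
Deviation of 1 RPF library with GC content. The x axis gives the GC content of the coding sequence (%) and the y axis a difference in log2 RPF CPM for the 36 members tested, with filled diamonds for S51 vehicle replicate 2 minus the mean of replicates 1 and 3 and open circles for replicate 1 minus replicate 3. The diamonds rise from -1.40 for Usp14 at 40.3% GC to positive values for most GC-rich members, whereas the circles show no such slope.

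Which USPs changed their ribosome-bound mRNA when the proteasome was blocked was asked first. In S51 cells, 13 of the 36 members tested changed after bortezomib, 8 higher and 5 lower, a share of 36.1% beside 30.8% of all genes tested, 14.8% higher and 16% lower (edgeR quasi-likelihood test, Benjamini-Hochberg adjusted p below 0.05, here and for all later calls). Of the 13, 7 also exceeded a fold of 1.5, as did 18.6% of all genes. The median log2 fold change over the 36 was 0.098, against 8.719e-06 over all genes. Without S51 vehicle replicate 2 the count was 14, 7 higher and 7 lower, of which 11 were among the 13, beside 30.1% of all genes. Of the 13 calls, 8 held without each library in turn and 6 under each other setting tried.

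Usp14, the proteasome's own USP, had the largest increase past the threshold with all libraries, and Usp45 (log2 0.68 against 0.63) without S51 vehicle replicate 2. RPFs of Usp14 measured 284, 109 and 297 CPM in S51 vehicle and 400.3, 417, 520.5 and 445 CPM in S51 bortezomib, a 1.92-fold rise (log2 0.94 ± 0.20 SE, adjusted p = 0.00122). Every bortezomib library lay above every vehicle library, and 109 CPM is the value of replicate 2, without which the log2 rise was 0.63 (adjusted p = 1.55e-06). Usp5 measured 249, 261 and 235 CPM and 312, 335, 299.6 and 324 CPM, and rose 1.28-fold (log2 0.35 ± 0.081 SE, adjusted p = 0.00218) with no overlap. Usp5, whose coding sequence is GC-rich, was not low in replicate 2, and its log2 rise was 0.39 without it. In S51A, Usp5 was the sole member to rise, from 284, 260.2, 266 and 259 CPM to 315, 344, 325 and 348 CPM, 1.25-fold (log2 0.32 ± 0.073 SE, adjusted p = 0.00318), again without overlap. Usp14 in S51A measured 276, 294, 278 and 329 CPM under vehicle and 457, 385, 389 and 372 CPM under bortezomib. The groups did not overlap either, but the test with all libraries missed the threshold (log2 0.44 ± 0.18 SE, adjusted p = 0.0888). Leaving out S51 vehicle replicate 2 gave the log2 difference 0.44 with adjusted p = 1.33e-05. That library is in neither group compared. It enters the test through what all groups share, the estimate of the spread, the scaling, the gene filter and the adjustment.

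**Figure D2:**
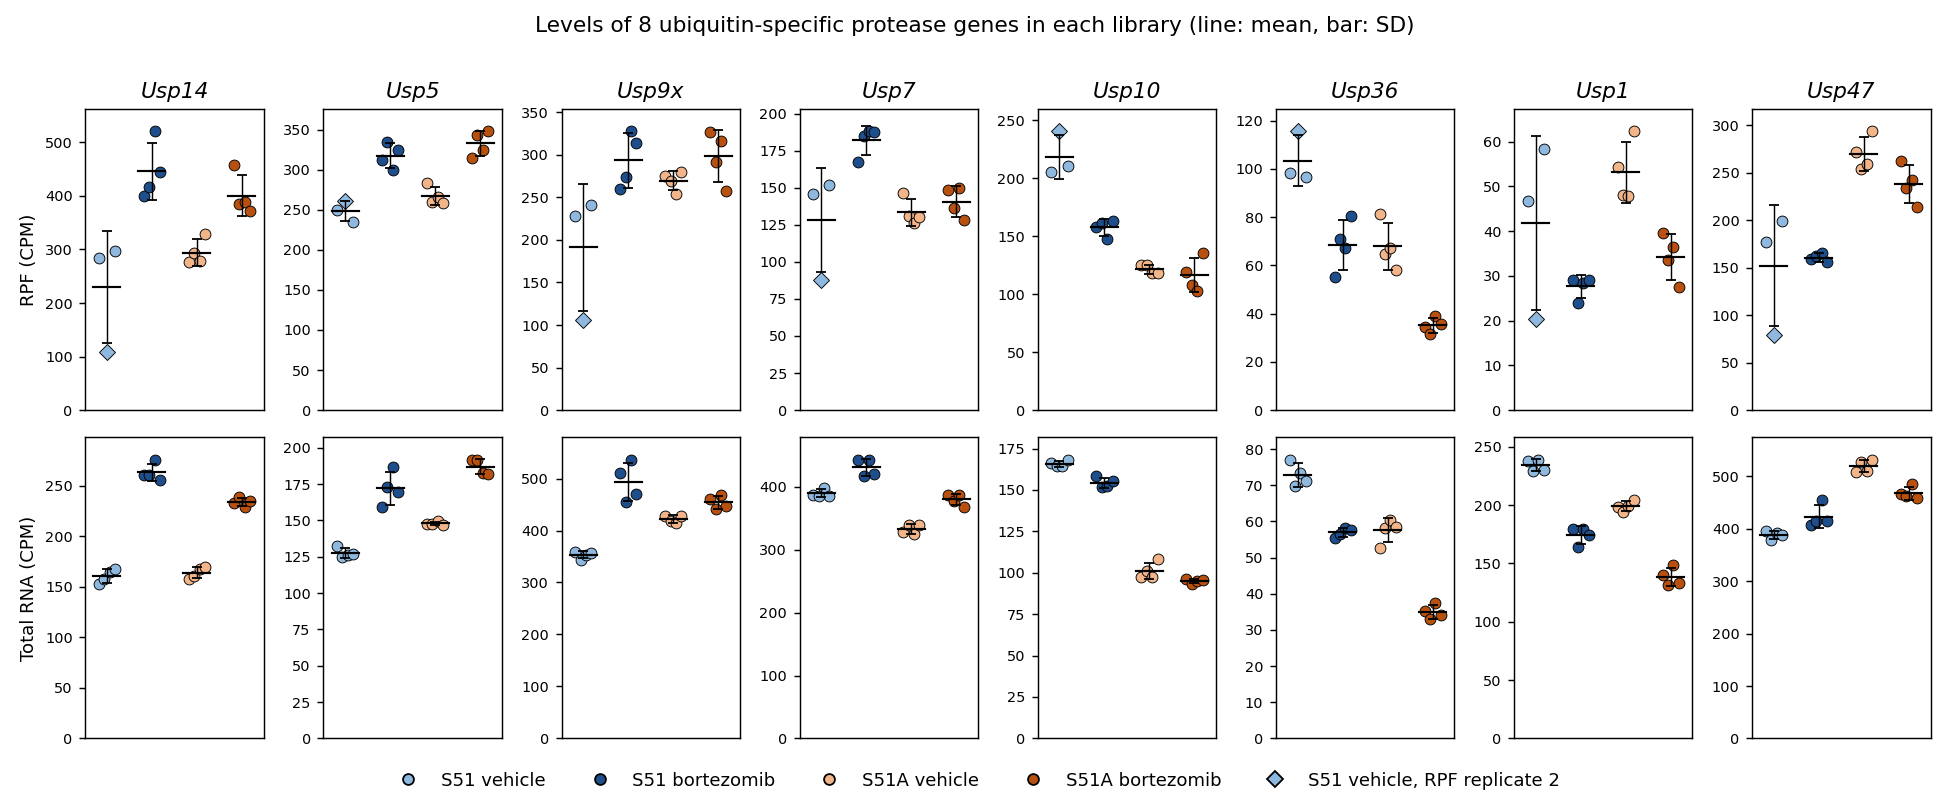
Levels of 8 USP genes in each library. Upper panels give RPF CPM and lower panels total RNA CPM on axes that start at 0, with 1 point per library, a line at the group mean, a bar of 1 SD and a diamond for the RPF library of S51 vehicle replicate 2. The diamond lies far below its group for Usp14, Usp9x, Usp7, Usp1 and Usp47 but not for Usp5, Usp10 and Usp36, and total RNA values of each group lie close together.

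Usp9x, a very large X-linked enzyme with many substrates, and Usp7, which acts on Mdm2 and p53, also rose in S51. RPFs of Usp9x went from 228, 106 and 241 CPM to 259.8, 274, 328 and 314 CPM (log2 0.61 ± 0.17 SE, adjusted p = 0.0116) and those of Usp7 from 146, 87.5 and 152 CPM to 167, 185, 188 and 188 CPM (log2 0.49 ± 0.13 SE, adjusted p = 0.00829). In both genes replicate 2 of vehicle was the low value, and without it the log2 rises were 0.34 (adjusted p = 0.00493) and 0.29 (adjusted p = 0.0121). In S51A the log2 differences were 0.15 (adjusted p = 0.567) for Usp9x and 0.078 (adjusted p = 0.71) for Usp7. Usp19, whose membrane-anchored form resides in the endoplasmic reticulum, was one of the GC-rich members: 86.8, 101 and 73.7 CPM under vehicle and 106, 133, 108 and 109.8 CPM under bortezomib (log2 0.39 ± 0.12 SE, adjusted p = 0.021), with a log2 rise of 0.50 without replicate 2. The call of Usp19 was lost without S51 vehicle replicate 3 (0.25, adjusted p = 0.146) and without S51 bortezomib replicate 2 (0.32, adjusted p = 0.0663). The remaining increases in S51 were those of Usp45 (log2 0.82), which acts on the repair nuclease subunit Ercc1, Usp33 (0.62), an enzyme of receptor recycling, and Usp4 (0.34). Without replicate 2 the first of these measured 0.68, Usp33 0.42 and Usp4 0.21, and Usp4 no longer passed (adjusted p = 0.122). The call of Usp4 was also lost without S51 vehicle replicate 1 and without S51 bortezomib replicate 3 or 4. That of Usp45 was lost without S51 bortezomib replicate 3 (0.77, adjusted p = 0.0597).

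Decreases in S51 were led by 2 genes with few reads. Usp21, an enzyme of histone H2A, fell 3.01-fold, from 7.08, 5.80 and 7.72 CPM to 1.46, 0.956, 4.16 and 1.12 CPM (log2 -1.59 ± 0.37 SE, adjusted p = 0.00269). The log2 change was -1.67 without S51 vehicle replicate 2 and -2.51 without S51 bortezomib replicate 3, the library at 4.16 CPM. Usp54 fell from 3.54, 4.35 and 3.98 CPM to 2.18, 0, 1.89 and 1.12 CPM (log2 -1.41 ± 0.49 SE, adjusted p = 0.0324), with adjusted p = 0.0557 without S51 vehicle replicate 2. Its call was also lost without S51 vehicle replicate 3 or S51 bortezomib replicate 2 or 4 (adjusted p up to 0.0813). The 3 other decreases rested on more reads. Usp10, which binds the stress granule proteins G3bp1 and G3bp2, measured 205, 240.3 and 210.1 CPM and 158, 162, 148 and 163 CPM, 1.39-fold lower (log2 -0.47 ± 0.10 SE, adjusted p = 0.000985). Usp36, a nucleolar enzyme, measured 98.1, 116 and 96.6 CPM and 55.3, 70.8, 67.3 and 80.7 CPM (log2 -0.58 ± 0.13 SE, adjusted p = 0.00188). In both genes every bortezomib library lay below every vehicle library, and the log2 falls were -0.40 and -0.50 without replicate 2. Usp1, which with Wdr48 acts on Fancd2 and PCNA, measured 46.8, 20.3 and 58.2 CPM and 29.1, 23.9, 28.4 and 29.1 CPM. Its groups overlapped only through the low value of 20.3 CPM in replicate 2, and its log2 change went from -0.63 (adjusted p = 0.0449) to -0.92 (adjusted p = 1.66e-05) when that library was left out. The call was lost in 11 of the 15 fits without 1 library, at most to -0.33 (adjusted p = 0.306), and with DESeq2 or only the groups compared. Calls gained in the same way were Usp25 (-0.43), Usp8 (-0.43) and Usp46 (-0.78), all lower after bortezomib.

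In S51A cells 5 of the 36 members changed, 1 higher and 4 lower (13.9%, beside 20.6% of all genes, 9.25% higher and 11.4% lower), and the median log2 fold change was -0.058. Beside the rise of Usp5, Usp36 fell 1.91-fold, from 81.3, 64.6, 67.2 and 58.2 CPM to 34.5, 31.7, 39.0 and 35.6 CPM (log2 -0.93 ± 0.13 SE, adjusted p = 1.76e-05). Usp1 fell from 54.2, 48.1, 47.7 and 62.3 CPM to 39.6, 33.6, 36.4 and 27.5 CPM (log2 -0.63 ± 0.20 SE, adjusted p = 0.0265). The groups did not overlap for Usp36 or Usp1. The call of Usp1 was lost without S51A vehicle replicate 1 or 4 or S51A bortezomib replicate 2 or 4 (adjusted p up to 0.0975). Usp22, the deubiquitinase of the SAGA coactivator, fell 1.27-fold (log2 -0.34 ± 0.10 SE, adjusted p = 0.0211). Its call was lost without S51A vehicle replicate 2 or S51A bortezomib replicate 1, 2 or 4. Usp46 fell 1.59-fold (log2 -0.67 ± 0.23 SE, adjusted p = 0.0448) with overlapping groups, a call lost in 9 of the 15 fits without 1 library. Usp10, lower in S51, measured 125, 125, 118 and 118 CPM and 119, 108, 103 and 136 CPM in S51A (log2 -0.057 ± 0.093 SE, adjusted p = 0.725). Without S51 vehicle replicate 2 the count was 7, with Usp14 and Usp42 added, beside 30.6% of all genes, and without S51A bortezomib replicate 2 it was 2.

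**Figure D3:**
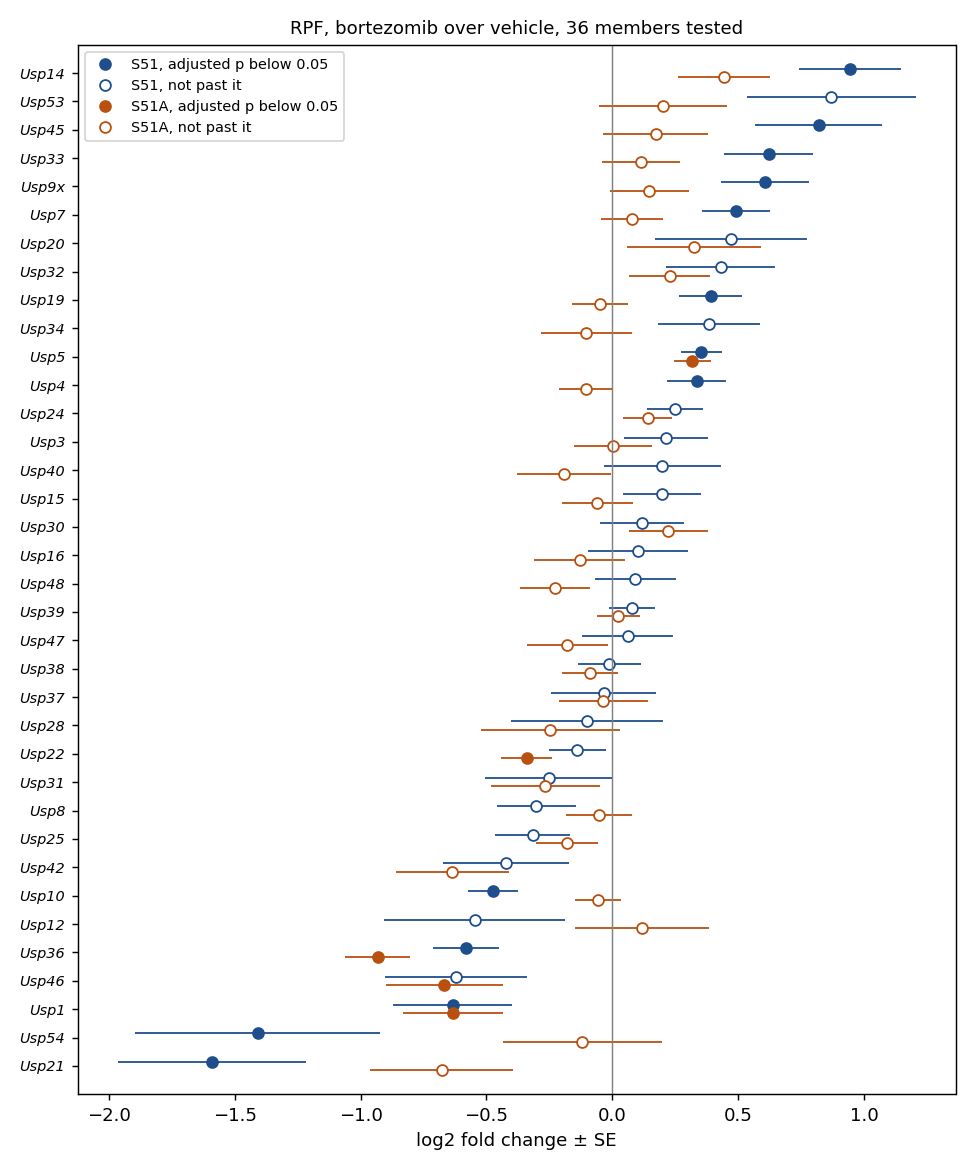
RPF response of the 36 members tested to bortezomib in S51 (blue) and S51A (orange). The x axis gives the log2 fold change with 1 SE, ordered by S51, and filled points have an adjusted p below 0.05. Usp14 is at the top with 0.94 in S51 and 0.44 in S51A, and Usp21 is at the bottom with -1.59 and -0.68.

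Whether these RPF responses differed between the genotypes was tested as an interaction, S51 minus S51A. No member passed (edgeR quasi-likelihood test), 6 had an unadjusted p below 0.05, 0 passed with DESeq2, and 2.35% of all genes were called. The difference was -0.42 (adjusted p = 0.116) for Usp10, 0.44 (adjusted p = 0.159) for Usp4 and 0.44 (adjusted p = 0.182) for Usp19. Without S51 vehicle replicate 2, Usp19 passed (0.55, adjusted p = 0.0158), beside 5.02% of all genes. RPF changes called in 1 genotype and not in the other were thus not shown to differ, Usp19 in that setting excepted.

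Total RNA, sequenced several times more deeply, resolved smaller changes. In S51 26 of 41 members changed, 17 higher and 9 lower (63.4%, beside 59.8% of all genes, 29.7% higher and 30.2% lower), and in S51A 25 changed, 13 higher and 12 lower (61.0%, beside 56.4%, 27.5% higher and 28.9% lower). None exceeded a fold of 2, which 4.99% of all genes did in S51 and 4.18% in S51A. The split depends on scaling: when library sizes were left without TMM factors, the median of all genes shifted by -0.154 in S51 and -0.116 in S51A, and the members split into 10 higher and 17 lower in S51 and 6 higher and 18 lower in S51A. Of all genes, 16.7% were then higher and 47.6% lower in S51, and 16.4% and 42.8% in S51A. All log2 changes are relative to the other genes, and increases smaller than these shifts can turn negative with library sizes alone.

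Usp14 again rose most in S51, from 153, 158, 165 and 168 CPM to 261, 261, 276 and 256 CPM (1.64-fold, log2 0.71 ± 0.036 SE, adjusted p = 2.17e-14), and in S51A from 158, 161, 167 and 169 CPM to 233, 239, 229 and 235 CPM (1.43-fold, log2 0.52 ± 0.036 SE, adjusted p = 1.1e-11). Usp5 rose in both, from 133, 125, 127 and 127 CPM to 159, 173, 187 and 169.6 CPM in S51 (log2 0.43 ± 0.039 SE, adjusted p = 1.21e-09) and from 148, 148, 149 and 147 CPM to 192, 192, 183 and 182 CPM in S51A (log2 0.34 ± 0.039 SE, adjusted p = 7.85e-08). For both genes no library of one treatment reached the range of the other. Usp27x, an X-linked enzyme that can join the Usp22 module, rose by log2 0.45 in S51 and 0.52 in S51A at 3.08 to 7.29 CPM. Also higher in both genotypes were Usp32 (0.44 and 0.24), Usp33 (0.43 and 0.23), Usp24 (0.40 and 0.14), Usp3 (0.31 and 0.17), Usp30 (0.20 and 0.29), Usp7 (0.14 and 0.19), Usp45 (0.16 and 0.19), Usp9x (0.48 and 0.11) and Usp15 (0.14 and 0.094). With library sizes alone, Usp15 turned negative in both genotypes, Usp7 in S51 and Usp9x in S51A. Past the threshold in S51 and not higher past it in S51A were Usp53 (0.38), Usp19 (0.32), Usp20 (0.29), Usp34 (0.23) and Usp47 (0.12, negative with library sizes alone).

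Of the decreases, those of Usp46, Usp1, Usp42, Usp36, Usp10 and Usp48 passed in both genotypes. Usp46, a partner of Wdr48 like Usp1, fell by 0.59 on the log2 scale in S51 and by 0.49 in S51A. Usp1 went from 238, 229, 239 and 230.4 CPM to 179.8, 164, 179 and 174 CPM in S51 (log2 -0.43 ± 0.038 SE, adjusted p = 9.36e-10) and from 198, 194, 199.5 and 205 CPM to 141, 131, 149 and 133 CPM in S51A (log2 -0.53 ± 0.039 SE, adjusted p = 3.9e-11). The treatments did not overlap in either genotype. Usp36 went from 77.1, 69.7, 73.3 and 71.1 CPM to 55.5, 56.6, 58.3 and 57.6 CPM in S51 (log2 -0.35 ± 0.047 SE, adjusted p = 5.97e-07) and from 52.7, 58.2, 60.5 and 58.5 CPM to 35.2, 32.9, 37.3 and 34.1 CPM in S51A (log2 -0.72 ± 0.05 SE, adjusted p = 1.06e-11). Usp42 changed by log2 -0.35 and -0.62. Usp10 mRNA fell little, with 166, 164, 165 and 168 CPM and 158, 152, 153 and 155 CPM in S51 (log2 -0.10 ± 0.034 SE, adjusted p = 0.0117), and 97.2, 101, 97.5 and 108 CPM and 96.4, 93.4, 95.1 and 95.9 CPM in S51A (log2 -0.087 ± 0.036 SE, adjusted p = 0.0422). Usp48 changed by -0.10 in both. In S51, Usp21 (-0.49), Usp40 (-0.24) and Usp12 (-0.23) fell too. In S51A, Usp2 (-0.74), Usp49 (-0.53), Usp54 (-0.42), Usp22 (-0.25), Usp25 (-0.24) and Usp47 (-0.15) fell, and Usp35 rose (0.75, 17 to 43 reads per library).

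**Figure D4:**
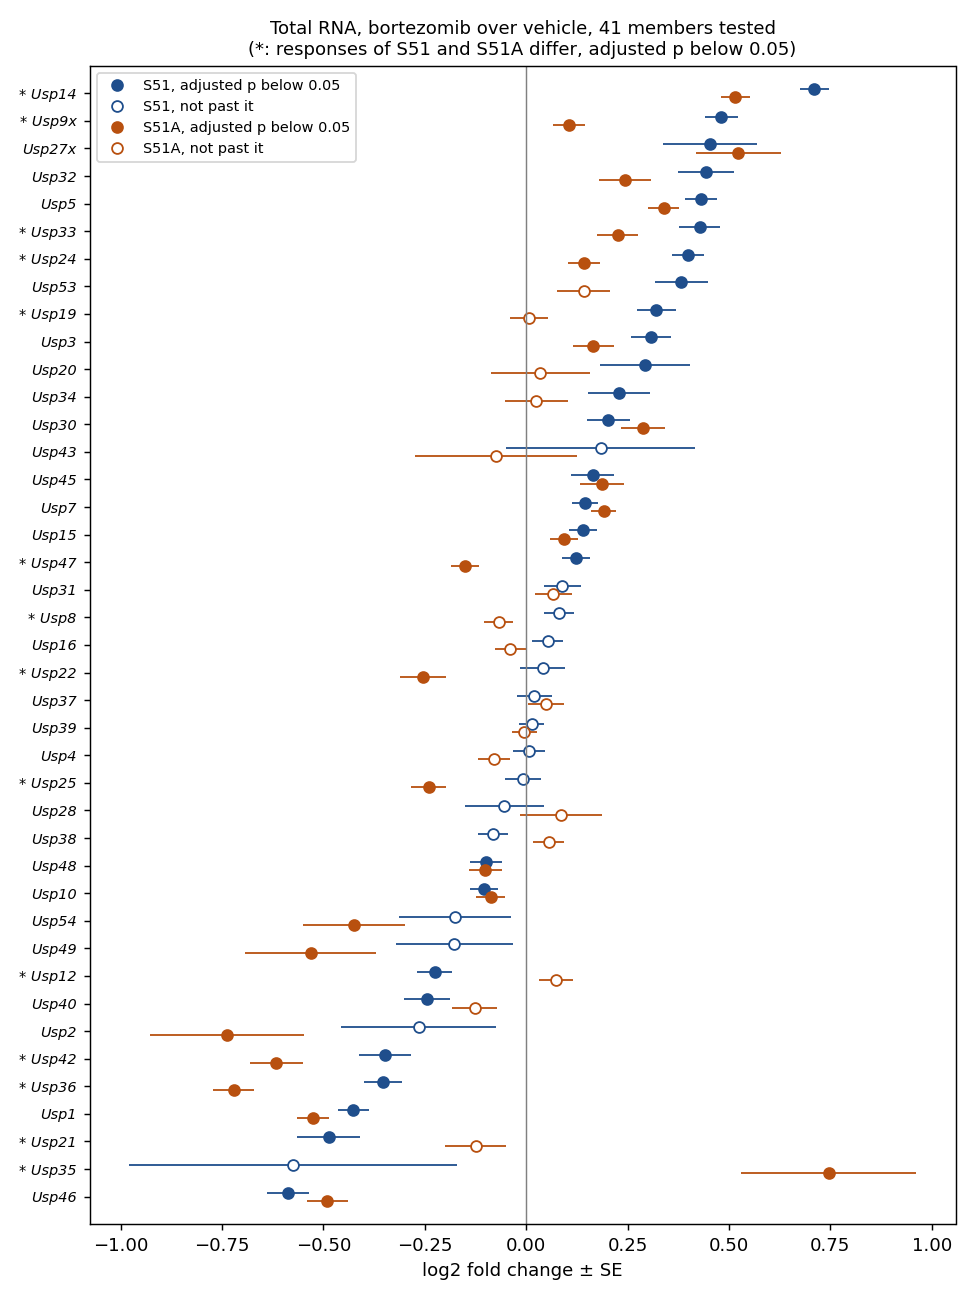
Total RNA response of the 41 members tested to bortezomib in S51 (blue) and S51A (orange). The x axis gives the log2 fold change with 1 SE, ordered by S51, filled points have an adjusted p below 0.05, and an asterisk marks the 14 members whose responses differed between the genotypes. Usp14 stands at 0.71 in S51 and 0.52 in S51A, and Usp35 at -0.58 and 0.75.

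The difference between the genotypes' mRNA responses passed for 14 of 41 members (34.1%, beside 21.6% of all genes), 11 of them with the larger value in S51 (12% of all genes) and 3 with the smaller (9.58%). With library sizes alone 12 passed, 11 of them among the 14, beside 23.2% of all genes. Of all genes, 9.26% then had the larger value in S51 and 14% the smaller, so that this balance depends on scaling. The smallest adjusted p was that of Usp9x, which went from 359.6, 344, 353 and 356 CPM to 511, 455, 536 and 471 CPM in S51 and from 429, 418, 414 and 428 CPM to 460.0, 441, 468 and 447 CPM in S51A, with a difference of the log2 responses of 0.38 (adjusted p = 4.82e-05). The bortezomib libraries of the 2 genotypes overlapped, while the vehicle libraries were all lower in S51. Usp19 went from 49.6, 44.3, 43.0 and 44.8 CPM to 54.4, 55.4, 58.9 and 58.02 CPM in S51, while in S51A it measured 54.4, 55.2, 56.2 and 57.9 CPM and 59.8, 55.5, 55.1 and 54.5 CPM (0.31, adjusted p = 0.00159), likewise with the lower values in S51 vehicle. Usp36 fell less in S51 than in S51A (0.37, adjusted p = 0.000462), as did Usp42 (0.27, adjusted p = 0.0384). Usp14 rose more in S51 (0.20, adjusted p = 0.00705), and so did Usp24 (0.26, adjusted p = 0.00196) and Usp33 (0.20, adjusted p = 0.0436). Usp47 moved in opposite directions, from 396, 378, 391 and 388 CPM to 407, 415, 455 and 415 CPM in S51 and from 509, 527, 509.6 and 532 CPM to 466, 462, 486 and 458 CPM in S51A (0.27, adjusted p = 0.000289), though its rise in S51 turned to -0.030 with library sizes alone. For Usp22 (0.30) and Usp25 (0.23) the fall in S51A made the difference positive, and for Usp8 it was 0.15 (adjusted p = 0.039). Of the 14, 10 held without each library in turn, whereas the calls of Usp8, Usp33, Usp42 and Usp35 were lost in 12, 10, 9 and 10 of the 16 fits without 1 library.

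The other 3 differences were negative. Usp12, a Wdr48 partner closely related to Usp46, measured 77.5, 76.3, 76.1 and 79.1 CPM and 69.5, 69.6, 61.8 and 63.5 CPM in S51, without overlap, and 76.6, 79.7, 75.6 and 79.2 CPM and 84.1, 83.1, 83.2 and 77.1 CPM in S51A (-0.30, adjusted p = 0.000977). Its relative Usp46 fell in both genotypes with no called difference (-0.10, adjusted p = 0.365). Usp21 fell in S51 and measured log2 -0.12 in S51A (-0.36, adjusted p = 0.0175). Usp35 had the largest value, -1.32 (adjusted p = 0.0414), on few reads, with 0.503, 0.232, 0.367 and 0.46 CPM and 0.202, 0.289, 0.389 and 0.153 CPM in S51 against 1.10, 0.784, 1.25 and 1.31 CPM and 2.03, 1.74, 2.35 and 1.39 CPM in S51A. Its counts were 3 to 11 per library in S51.

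TE asks whether ribosomes followed the mRNA. In S51, TE fell for 2 of 36 members after bortezomib (5.56%, beside 9.65% of all genes, 7.27% lower): Usp10 (log2 -0.37 ± 0.089 SE, adjusted p = 0.00515) and Usp21 (log2 -1.11 ± 0.36 SE, adjusted p = 0.0444). For Usp10, the bound mRNA fell 1.39-fold and the mRNA 1.07-fold. With RPF and total RNA fitted separately, an alternative chosen after the data were seen, Usp10 passed (adjusted p = 0.0363) and Usp21 did not (adjusted p = 0.0971). The separate fits are given because the joint fit called more unchanged genes than its threshold allows in simulated data. Usp21 lost its call without 10 of the 31 libraries, and its log2 change was -2.07 without RPF replicate 3 of S51 bortezomib. With library sizes alone, the median of all genes shifted by 0.155 and 3 members were called, all higher and none of them among the 2. Of all genes, 16.4% were then called, 12.1% higher and 4.22% lower. Without S51 vehicle replicate 2 the count was 6, all lower (beside 9.09% of all genes): Usp21 (-1.19), Usp8 (-0.52), Usp1 (-0.50), Usp25 (-0.43), Usp47 (-0.35) and Usp10 (-0.30). Of these, Usp47 (adjusted p = 0.0294) and Usp8 (adjusted p = 0.0375) passed in separate fits and Usp10 did not (adjusted p = 0.0718). No member passed for TE in S51A (edgeR quasi-likelihood test, 1 at an unadjusted p below 0.05, 0 with DESeq2, 1.35% of all genes called), nor did any pass for the difference between the genotypes' TE responses (7 at an unadjusted p below 0.05, 1.72% of all genes called, 2 with DESeq2). Usp14 and Usp5 had TE changes of 0.22 (adjusted p = 0.542) and -0.077 (adjusted p = 0.611) in S51, so that no TE change was detectable for either. The value of Usp14 includes S51 vehicle replicate 2, in which its RPFs were low. Its log2 RPF rise in S51 was 0.63 without that library, beside 0.71 in mRNA.

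Under bortezomib, TE was lower in S51 than in S51A for 3 members (8.33%, beside 6.4% of all genes, 5.09% lower): Usp8, which with Stam and Hgs works on endosomes, Usp24 and Usp25. RPFs of Usp8 measured 45.9, 41.1, 42.4 and 30.8 CPM in S51 bortezomib and 65.1, 62.9, 54.1 and 50.7 CPM in S51A bortezomib, with no overlap, while its mRNA averaged 122 ± 3.73 CPM and 118 ± 1.73 CPM (SD, n = 4). The TE difference was log2 -0.60 ± 0.13 SE (adjusted p = 0.00274). For Usp24, RPFs measured 92.4, 102, 96.5 and 85.1 CPM against 115, 114, 104 and 107 CPM although its mRNA was 1.15-fold higher in S51, and the TE difference was -0.44 (adjusted p = 0.00305). Usp25 measured 35.7, 42.1, 37.8 and 32.5 CPM against 55.1, 55.6, 41.6 and 48.4 CPM, with an overlap between 42.1 and 41.6 CPM, and had a TE difference of -0.55 (adjusted p = 0.00694). All 3 also passed in separate fits, with adjusted p = 0.0248, 0.0206 and 0.0364 in that order. Without S51 vehicle replicate 2, Usp1, Usp47 and Usp10 were lower too, which made 6 members beside 10.1% of all genes. In separate fits without that library 5 members passed, beside 7.25% of all genes. Under vehicle no member's TE passed between the genotypes (10 at an unadjusted p below 0.05, 0 with DESeq2, 0.106% of all genes called), but 6 passed when RPF replicate 3 of S51 vehicle was left out. The RPF libraries of S51 vehicle in that fit were replicate 1 and replicate 2, which deviates with GC content. Its share of all genes called is not given here, so the 6 are not read as differences between the lines.

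Between the lines, RPFs differed for 9 members under vehicle, 4 higher in S51 and 5 lower (25.0%, beside 28.6% of all genes, 13.8% higher and 14.8% lower), and for 12 under bortezomib, 6 in each direction (33.3%, beside 31.5%, 14.9% higher and 16.6% lower). Usp10 stood highest in S51 under vehicle, at 205, 240.3 and 210.1 CPM against 125, 125, 118 and 118 CPM in S51A (1.80-fold, log2 0.84 ± 0.10 SE, adjusted p = 1.16e-06), and under bortezomib the log2 difference was 0.43 (adjusted p = 0.00159). The groups did not overlap under either treatment. The vehicle libraries of S51 enter both this difference and the fall of Usp10 in S51. Usp36 was higher in S51 too, with 98.1, 116 and 96.6 CPM against 81.3, 64.6, 67.2 and 58.2 CPM under vehicle (log2 0.62 ± 0.12 SE, adjusted p = 0.000832) and 55.3, 70.8, 67.3 and 80.7 CPM against 34.5, 31.7, 39.0 and 35.6 CPM under bortezomib (log2 0.97 ± 0.14 SE, adjusted p = 1.45e-05). Usp39, the splicing factor, was also higher under both, with log2 0.36 and 0.41. Lower in S51 under both treatments were Usp32 (-0.94 and -0.74), an enzyme of the Golgi and late endosomes, and Usp47 (-0.81 and -0.57), which acts on DNA polymerase beta.

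A further 4 members passed under vehicle, Usp30 (0.52), Usp53 (-0.86), Usp9x (-0.48) and Usp24 (-0.34), and all were lost without S51 vehicle replicate 2, with log2 values of 0.37, -0.71, -0.20 and -0.24. The count was then 6, of which 5 were among the 9, with Usp19 added (-0.37), beside 28.7% of all genes. Usp47, low in that replicate, measured -0.51 without it. The calls of Usp30, Usp53, Usp9x and Usp24 were lost without S51A vehicle replicate 3 too. That of Usp9x was also lost without S51A vehicle replicate 1, 2 or 4, S51 bortezomib replicate 2 or 4, or S51A bortezomib replicate 3. That of Usp53 was also lost without S51 vehicle replicate 1 or 3 or S51A vehicle replicate 1, and that of Usp24 without S51 vehicle replicate 1. Under bortezomib, where S51 vehicle takes no part, the other calls were Usp54 (-1.52), Usp12 (-0.89), Usp8 (-0.55) and Usp25 (-0.45), lower in S51, and Usp3 (0.43), Usp7 (0.37) and Usp22 (0.29), higher. Of the 12 calls under bortezomib, 6 held without each library in turn. Those of Usp12, Usp22, Usp3 and Usp7 were lost in 10, 10, 9 and 5 of the 15 fits, and Usp12 measured -1.59 without S51 bortezomib replicate 3. Without S51 vehicle replicate 2 in the shared fit, Usp24, Usp30 and Usp4 were added, beside 39.8% of all genes, and without S51 bortezomib replicate 4 the count was 6.

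**Figure D5:**
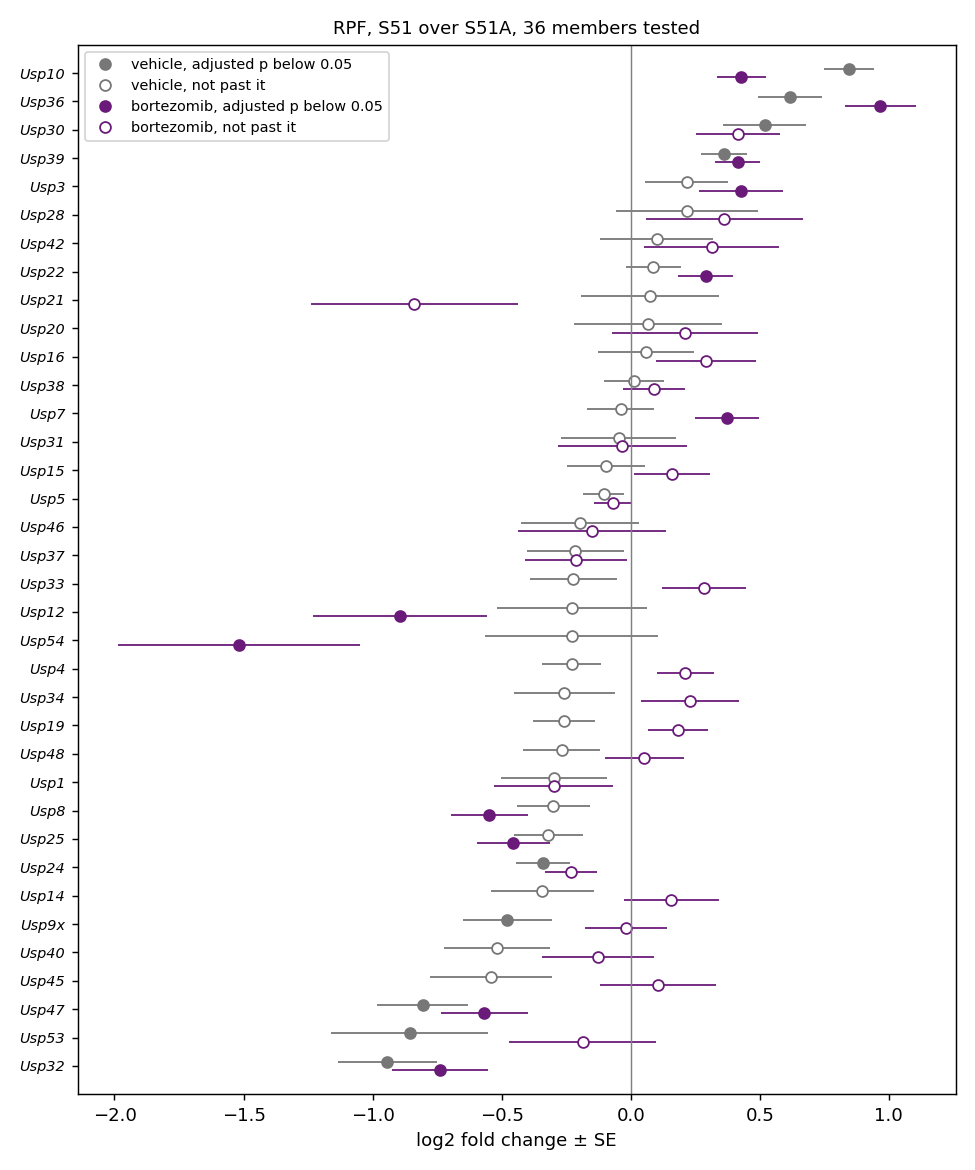
RPF difference between the lines for the 36 members tested, S51 over S51A, under vehicle (grey) and bortezomib (purple). The x axis gives the log2 fold change with 1 SE, ordered by vehicle, and filled points have an adjusted p below 0.05. Usp10 is at the top with 0.84 and 0.43, and Usp32 at the bottom with -0.94 and -0.74.

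The mRNAs differed between the lines for 26 of 41 members under vehicle, 12 higher in S51 and 14 lower (63.4%, beside 63.8% of all genes, 32.4% higher and 31.4% lower), and for 28 under bortezomib, 17 higher and 11 lower (68.3%, beside 65.7%, 32.4% higher and 33.3% lower). Usp10 mRNA was 1.64-fold higher in S51 under vehicle (log2 0.72 ± 0.035 SE, adjusted p = 1.07e-14) and 1.62-fold higher under bortezomib. Usp35 was 2.82-fold lower in S51 under vehicle and 7.05-fold lower under bortezomib, and was the sole member past a fold of 2, which 7.87% and 8.28% of all genes exceeded. Usp32 (-0.76 and -0.56), Usp54 (-0.58 and -0.33), Usp40 (-0.16 and -0.28), Usp5 (-0.21 and -0.12), Usp27x (-0.45 and -0.51) and Usp47 (-0.42 and -0.15) were lower in S51 under both treatments. Higher under both were Usp3 (0.42 and 0.56), Usp39 (0.35 and 0.37), Usp20 (0.35 and 0.61), Usp16 (0.30 and 0.39), Usp15 (0.27 and 0.32), Usp7 (0.23 and 0.18), Usp36 (0.34 and 0.71), Usp31 (0.11 and 0.13) and Usp1 (0.23 and 0.33). Past the threshold under vehicle and not under bortezomib, Usp43 (-0.74), Usp19 (-0.30), Usp53 (-0.29), Usp34 (-0.18), Usp25 (-0.14) and Usp8 (-0.10) were lower in S51, and Usp28 (0.27) and Usp30 (0.17) higher. Past it under bortezomib and not under vehicle, Usp21 (-0.44), Usp12 (-0.31), Usp46 (-0.16) and Usp38 (-0.10) were lower, and Usp49 (0.62), Usp22 (0.32), Usp33 (0.21), Usp24 (0.21), Usp14 (0.17) and Usp42 (0.15) higher. Usp9x was lower in S51 under vehicle (-0.26) and higher under bortezomib (0.12). Usp37 and Usp4 passed in no total RNA comparison.

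Related members can be set side by side. Of the trio Usp4, Usp11 and Usp15, Usp15 rose in mRNA in S51 and S51A while Usp4 measured log2 0.0062 and -0.079, and Usp11 was not tested, with at most 3 RPF and 7 total RNA reads in a library. Of Usp5 and Usp13, only Usp5 was read, since Usp13 had no count in any library. Of Usp12 and Usp46, Usp46 fell in mRNA in both genotypes and Usp12 in S51. Of Usp20 and Usp33, Usp33 mRNA rose in both genotypes, and Usp20 in S51 with 0.035 (adjusted p = 0.83) in S51A. Of Usp16 and Usp45, Usp45 rose in both and Usp16 measured 0.053 (adjusted p = 0.236) in S51 and -0.039 (adjusted p = 0.419) in S51A. Of Usp25 and Usp28, Usp25 fell in S51A, and Usp28 measured -0.054 (adjusted p = 0.656) and 0.085 (adjusted p = 0.499). Of Usp31 and Usp43, neither passed after bortezomib (Usp31 0.089 and 0.067, Usp43 0.18 and -0.075). Of Usp53 and Usp54, Usp53 rose in S51 and Usp54 fell in S51A. Except within the response of each gene, these differences between relatives were not tested.

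Levels between members can be compared only per length. Per kilobase of coding sequence, Usp14 had the highest mean RPF level in every group. It measured 207 ± 17.3 CPM per kilobase in S51A vehicle and 313 ± 37.4 in S51 bortezomib (mean ± SD of 4 libraries). In S51 vehicle its mean was 162 ± 73.7 (3 libraries). Its lowest library there, at 76.8, lay below the lowest values of Usp39 (95.8), Usp5 (93.5) and Usp10 (88.3). Under vehicle in S51A, Usp5 followed with 106 ± 4.52, then Usp39 with 77.9 ± 1.83, Usp22 with 69.1 ± 3.55 and Usp47 with 66.2 ± 4.37, the last pair being within 1 SD of each other. Per kilobase of transcript, total RNA of S51A vehicle was highest for Usp47 (89.3 ± 2.04) and Usp7 (70.2 ± 1.66), then Usp1 (55.7 ± 1.19), Usp39 (51.1 ± 0.524) and Usp5 (46.0 ± 0.334). Usp14 stood lower in that order, at 34.7 ± 1.15. The sources used here do not say whether total RNA was counted over whole transcripts, and orders of total RNA depend on the length taken. For Usp14, 1482 of the 4726 transcript nucleotides are coding. In S51 vehicle, Usp7 (82.1 ± 1.31) was first, and Usp47, Usp1 and Usp39 followed between 65.2 and 66.8 with differences near or within 1 SD. Over the whole family, RPFs summed to 1988 to 2738 CPM in S51 vehicle, where the lowest value is replicate 2, 2748 to 3016 in S51 bortezomib, 2615 to 2758 in S51A vehicle and 2673 to 2911 in S51A bortezomib. Total RNA summed to 4005 to 4066, 4356 to 4612, 4015 to 4185 and 4063 to 4206 CPM in the same order, with the S51 bortezomib libraries above all others. With library sizes alone they spanned 4069 to 4321 CPM and overlapped with S51 vehicle (4163 to 4251) and S51A vehicle (4217 to 4413), so that this order depends on the scaling.

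Members below the test's minimum were also accounted for. In neither kind of library were Usp9y, Usp11, Usp13, Usp18, Usp26, Usp29, Usp44, Usp50 and Usp51 tested. Usp13, Usp26 and Usp29 had no count, and the highest counts in a library were 1 RPF and 1 total RNA read for Usp9y, 4 and 9 for Usp18, an enzyme of the ubiquitin-like protein Isg15, 1 and 11 for Usp44, 3 and 4 for Usp50, and 0 and 1 for Usp51. A count of 0 allows up to 3 reads in a library, counting error only. Usp9y, the Y-linked relative of Usp9x, was thus nearly unread in S51A as well, where other Y-linked genes were read. Usp2, Usp27x, Usp35, Usp43 and Usp49 had at most 14, 16, 8, 15 and 6 RPF reads and were tested in total RNA alone.

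Other genes of the ubiquitin system give the surroundings. Of 33 deubiquitinases of other families, 28 were tested for RPFs, and 8 changed in S51 (3 higher, 5 lower, 28.6% beside 30.8% of all genes), from log2 -1.58 for Otud1 to 0.82 for Psmd14, the deubiquitinase of the proteasome lid, with a median of 0.15. In S51A 7 changed (4 higher, 3 lower, 25% beside 20.6%), with Tnfaip3 lowest at -1.49. Of 11 partners of USPs, 6 changed in S51, beside 30.8% of all genes, 5 of them higher (14.8% of all genes), among them Stam, which recruits Usp8 (0.97), and Psmd2, in the proteasome base that holds Usp14 (0.79), while Atxn7l3 of the Usp22 module fell (-0.96). In S51A 4 partners rose, beside 9.25% of all genes, and none fell. Among the 3 USP-fold genes of other name, Uspl1, a SUMO protease, rose in RPFs by log2 1.13 in S51 and 0.70 in S51A.

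Promoters were searched for elements of stress pathways, a feature that the choice of members did not use. RefSeq promoters (GRCm38.p6, 250 bases before to 50 after the start) were found for 38 of 50 members and searched on both strands. The core TGACNNNGC of the antioxidant response element stood in 9 of them (23.7%) and in 12.5% of all 27025 promoters. The windows of Usp10 and Usp36 are shown because these genes fell in RPFs in S51, with the core in capitals, 5′ to 3′ on the gene's strand.
Usp10: ggaggcagggctccgttacccGCTGAGTCA
Usp36: ctgcgcactgGCAATGTCAggcacgcaagc
The first lies at chr8:119910380-119910409 (plus strand), where the core starts 41 bases after the start, and the second at chr11:118290446-118290475 (minus strand), 221 bases before it. In both the core reads on the opposite strand. The other 7 promoters were those of Usp2, Usp13, Usp20, Usp25, Usp26, Usp32 and Usp34. The heat shock element core GAANNTTC stood in none of the 38 (7.95% of all promoters), the C/EBP-ATF element core TGATGNAA in 1, that of Usp26 (2.63%, beside 4.06%), and the E-box CACGTG in 4, those of Usp4, Usp16, Usp31 and Usp32 (10.5%, beside 7.24%). The elements were not searched outside these windows. Of the members' longest coding transcripts, 37 of 50 (74%) hold an ATG before the coding sequence, beside 50.6% of 21504 genes. The median number of such ATGs is 1 in both sets. The stretch before the coding sequence is longer in members, with a median of 217 nucleotides beside 154. Whether its length accounts for the share with an ATG was not tested. The median coding sequence is 2758.5 nucleotides long, beside 1191, with Usp34 (10749) the longest and Usp46 (1101) the shortest.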

How the data were processed

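The authors deposited read counts per gene, whole numbers without normalization, in a table of 15 RPF libraries and a table of 16 total RNA libraries. Their methods name FastX for trimming, bowtie2 for alignment to mm10 and plastid for counting, for RPFs in the coding sequence away from its ends, whereas the submitters' processing notes name Bowtie2, featureCounts and DESeq2. Versions are not given in the sources used here. Column headers add that rRNA and repeats were removed, duplicates marked and reads kept by mapping quality, so that near-identical genes such as Usp9x and Usp9y can lose reads. Whether counting used strand is not stated. Genes were listed by Entrez identifier, and 20687 RPF and 24569 total RNA identifiers had a symbol.

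The analysis ran in edgeR 4.0.16, which uses limma 3.58.1, under R 4.3.3. TMM factors scaled the library sizes, and filterByExpr (10 counts, total 15) left 9457 genes for RPF, 11708 for total RNA and 9424 for TE. glmQLFit was fitted with 1 coefficient per group over the 4 groups, glmQLFTest gave the contrasts, and Benjamini-Hochberg adjustment ran over all genes tested. TE was fitted over 31 libraries as an interaction, RPF or total RNA by group, with genes of both kinds, and the difference of the genotypes' responses a further contrast. Since that joint fit called more unchanged genes than its threshold allows in simulated data, TE was also taken from separate fits. Why it did so was not tested. Per-length levels used the coding sequence less 60 nucleotides for RPFs and the transcript for total RNA. The depth given with the results limits precision, and counting error alone underlies the floor of 3 counts.

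Replicate libraries were distinct, with a chi-square per gene of at least 1.64 in RPF and 2.69 in total RNA. Alternatives were DESeq2 1.42.0, RLE factors or library sizes alone, a lighter filter (1 count in any library), a stricter one (10 in every library), only the groups compared, replicate number or lysate as a block, and each library left out. The members, gene lists and tests were chosen with earlier results of these data known. Members past an adjusted p of 0.05 were named, with proteasomal, endosomal, mitochondrial, chromatin and repair enzymes and pairs of relatives whatever their values. Further gene lists were other deubiquitinases, USP partners and USP-fold genes of other name, and markers of keratinocytes, fibroblasts, blood and endothelium. A further short gene list is not reported here.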

Additional observations from a re-analysis of the deposited data

Results flagged for a closer look

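Single libraries stood apart from the 3 others of their group in 20 of the 272 groups of 4 values examined, 10 of 108 in RPF and 10 of 164 in total RNA, where chance alone gives about 1 in 20. The ratio given is the gap to the nearest library over the range of the group, beyond Dixon's critical value for 4 samples. In RPFs of S51 bortezomib, replicate 1 was lowest for Usp7 (0.835) and Usp53 (0.846), replicate 2 was lowest for Usp1 (0.855) and highest for Usp19 (0.868), and replicate 3 was highest for Usp21 (0.844). In RPFs of S51A vehicle, replicate 1 was lowest for Usp28 (0.881), replicate 2 was lowest for Usp21 (0.936) and highest for Usp25 (0.919), and replicate 4 was highest for Usp45 (0.879). In RPFs of S51A bortezomib, replicate 1 was highest for Usp45 (0.916). The RPF group of S51 vehicle, with 3 libraries, was not examined in this way.

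In total RNA of S51A bortezomib, replicate 4 was lowest for Usp12 (0.852) and Usp4 (0.940) and highest for Usp40 (0.856) and Usp48 (0.878), and replicate 3 was highest for Usp25 (0.856). In S51A vehicle, replicate 3 was highest for Usp21 (0.922) and replicate 4 for Usp46 (0.926). In S51 bortezomib, replicate 1 was highest for Usp31 (0.861) and replicate 3 lowest for Usp43 (0.887), and in S51 vehicle replicate 3 was highest for Usp7 (0.869).

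The mRNA response to bortezomib differed between S51 and S51A, by the interaction test, for 14 members. The log2 differences, S51 minus S51A, were 0.38 for Usp9x, 0.37 for Usp36, 0.31 for Usp19, 0.30 for Usp22, 0.27 for Usp47, 0.27 for Usp42, 0.26 for Usp24, 0.23 for Usp25, 0.20 for Usp33, 0.20 for Usp14 and 0.15 for Usp8. They were -0.30 for Usp12, -0.36 for Usp21 and -1.32 for Usp35, the last on counts of 3 to 43 per library.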

How the results depend on the processing

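Of 163 values of named members, 106 kept their direction and call under every alternative and with each library left out in turn, 57 lost the call under at least 1, and 5 reversed. The 5 reversed with library sizes alone: mRNA of Usp15 (-0.013), Usp7 (-0.0087) and Usp47 (-0.030) in S51 and of Usp15 (-0.022) and Usp9x (-0.010) in S51A. The cause was not tested beyond the shift of the median of all genes that this scaling brings.

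With only the groups compared in the fit, RPF calls numbered 6 for bortezomib in S51 (beside 21% of all genes) and 5 between the lines under vehicle (19.5%), and TE calls 1 in S51 (6.63%) and 6 between the lines under bortezomib (9.4%). With DESeq2, TE calls numbered 5 for bortezomib in S51 (3 higher, 2 lower, beside 7.61% of all genes), 5 between the lines under bortezomib (5.29%) and 2 for the difference of responses (2.18%). TE calls in S51 numbered 1 with genes of at least 1 count in any library, and 1 with separate fits of each kind, chosen after seeing the data. The cause of these differences was not tested.

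Replicate numbers were not taken as pairs, since no source ties them to a shared culture and not every same-numbered pair correlated above 0.1. Deviations of same-numbered RPF libraries had correlations of -0.158 to 0.261 (other pairs -0.358 to 0.308), and those of total RNA libraries 0.00213 to 0.191 (other pairs -0.167 to 0.0992). In total RNA 15 of 16 libraries, and in RPF 11 of 15, correlated best with their own number, a hint of pairing that the labels do not give. With the replicate number as a block, TE calls numbered 1 in S51 (beside 10.6% of all genes), 5 between the lines under bortezomib (7.41%) and 1 for the difference of responses (2.13%), and with lysate as a block 1 in S51 (6.67%). No other count of members moved by more than 1.5 times under the block.

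Leaving out each library in turn gave these ranges of calls. In RPF they were 10 to 14 for bortezomib in S51, 2 to 7 in S51A, 5 to 11 between the lines under vehicle, 6 to 15 under bortezomib and 0 to 1 for the difference of responses. In total RNA they were 24 to 27, 22 to 25, 23 to 27, 25 to 28 and 10 to 14 in the same order, and in TE 1 to 6, 0 to 0, 0 to 6, 3 to 6 and 0 to 3. RPF calls in S51A numbered 3 without vehicle replicate 2 or 4 or bortezomib replicate 1 or 4 of S51A, and 2 without bortezomib replicate 2. RPF calls between the lines numbered 5 under vehicle without S51A vehicle replicate 3 and 6 under bortezomib without S51 bortezomib replicate 4, and 1 difference of RPF responses passed without S51 vehicle replicate 3. TE calls in S51 numbered 4 without RPF replicate 3 of S51 vehicle and 1 without total RNA replicate 1 or 3 of S51 vehicle, 1 or 2 of S51 bortezomib, or 4 of S51A bortezomib. Differences of TE responses numbered 3 without RPF replicate 3 of S51 vehicle and 1 without RPF replicate 3 of S51A bortezomib. RPF results of S51 rest on 3 vehicle libraries, of which replicate 2 deviates with GC content, and RPFs of S51 bortezomib had the lowest totals (median total 1564487.5), so that low members such as Usp21 and Usp54 were counted with little precision.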
